A study of Drosophila melanogaster with 6 samples.

Results

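The 10 genes described here encode transcription factors and were listed as regulators of antennal segments in *Drosophila melanogaster*: *al*, *Lim1*, *C15*, *ct*, *Awh*, *dan*, *danr*, *disco*, *disco-r* and *Sox15*. They were taken by name, and all 10 were found under these symbols among 17684 annotated genes of 6 chromosome arms. For each gene the topologically associating domain (TAD) around it, the distance to the nearest TAD border and the neighbouring genes were read from Hi-C domain lists and compared between the eye disc and the antennal disc. Hi-C reads out which pieces of DNA are neighbours in space, by ligating them before sequencing, and a TAD is a region within which such contacts are frequent and across whose border they are rarer. The domain lists hold positions only. Expression, binding of factors and contact strength were not measured.

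The antenna and the leg are built on related plans, in which homeobox and zinc finger genes mark successive segments from base to tip. *al*, *C15* and *Lim1* encode homeodomain proteins known for their part in the most distal structures, the arista of the antenna and the tip of the leg. *dan* and *danr* encode related DNA-binding proteins of the Pipsqueak family that specify distal antenna as opposed to leg. *disco* and *disco-r* encode related zinc finger proteins of ventral appendages. *ct* encodes a homeodomain protein of proximal antennal segments and external sensory organs, *Awh* a LIM-homeodomain protein known from imaginal cells of the abdomen and salivary glands, and *Sox15* an HMG box protein known from the socket cells of sensory bristles. Genes of this kind are commonly controlled by enhancers at a distance, and TAD borders are known to limit which genes an enhancer contacts. The comparison asks whether the domains around these genes are drawn alike in a disc that forms an antenna and in one that forms an eye.

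Third-instar larvae of the genotype yw;+;+ supplied both tissues, which were cut apart by hand, and each library was made from a pool of 125 discs. Both groups share that genotype and received no treatment, and the labels do not give the sex of the larvae. TADs were read from 3 eye disc libraries, numbered 1 to 3, and from antennal disc libraries 2 and 3, while number 1 of the antennal disc was not analysed here. The authors' list from all replicates of each disc was set beside them, as 1 value per disc without error. A disc holds many cell types, so each list is an average over them. The 5 libraries held 1116 to 1217 TADs, in bins of 5 kb. The lists carry no contact counts, the depth is unknown, and the error given throughout is the spread between libraries. With 3 against 2 libraries the two-sided exact permutation test has 10 assignments and cannot give a p below 0.2, so no difference between the discs could pass a threshold for a single gene. Eye disc library 1 and antennal disc library 3 lack calls on chromosome 4 and on proximal parts of some arms, but every member had a host TAD in each of the 5 libraries and 2 pooled lists. No marker of tissue identity can be read from domain positions, so the disc labels were not checked.

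The 10 genes lay in 8 TADs, since *dan* with *danr* and *disco* with *disco-r* shared theirs in every list. Each gene lay wholly within its TAD in all 7 lists, and 0 borders fell inside a member, although *ct* is 70.4 kb long and *Lim1* 49.3 kb. The members had a median length of 11.9 kb, against 2.16 kb over all protein-coding genes. Of the 10 members, 9 were longer than that median, and *danr*, at 1.83 kb, was shorter. The 4 genes *Lim1*, *ct*, *disco* and *disco-r* lie on X, *C15*, *dan* and *danr* on 3R, and *al*, *Awh* and *Sox15* on 2L, 3L and 2R.

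**Figure D1:**
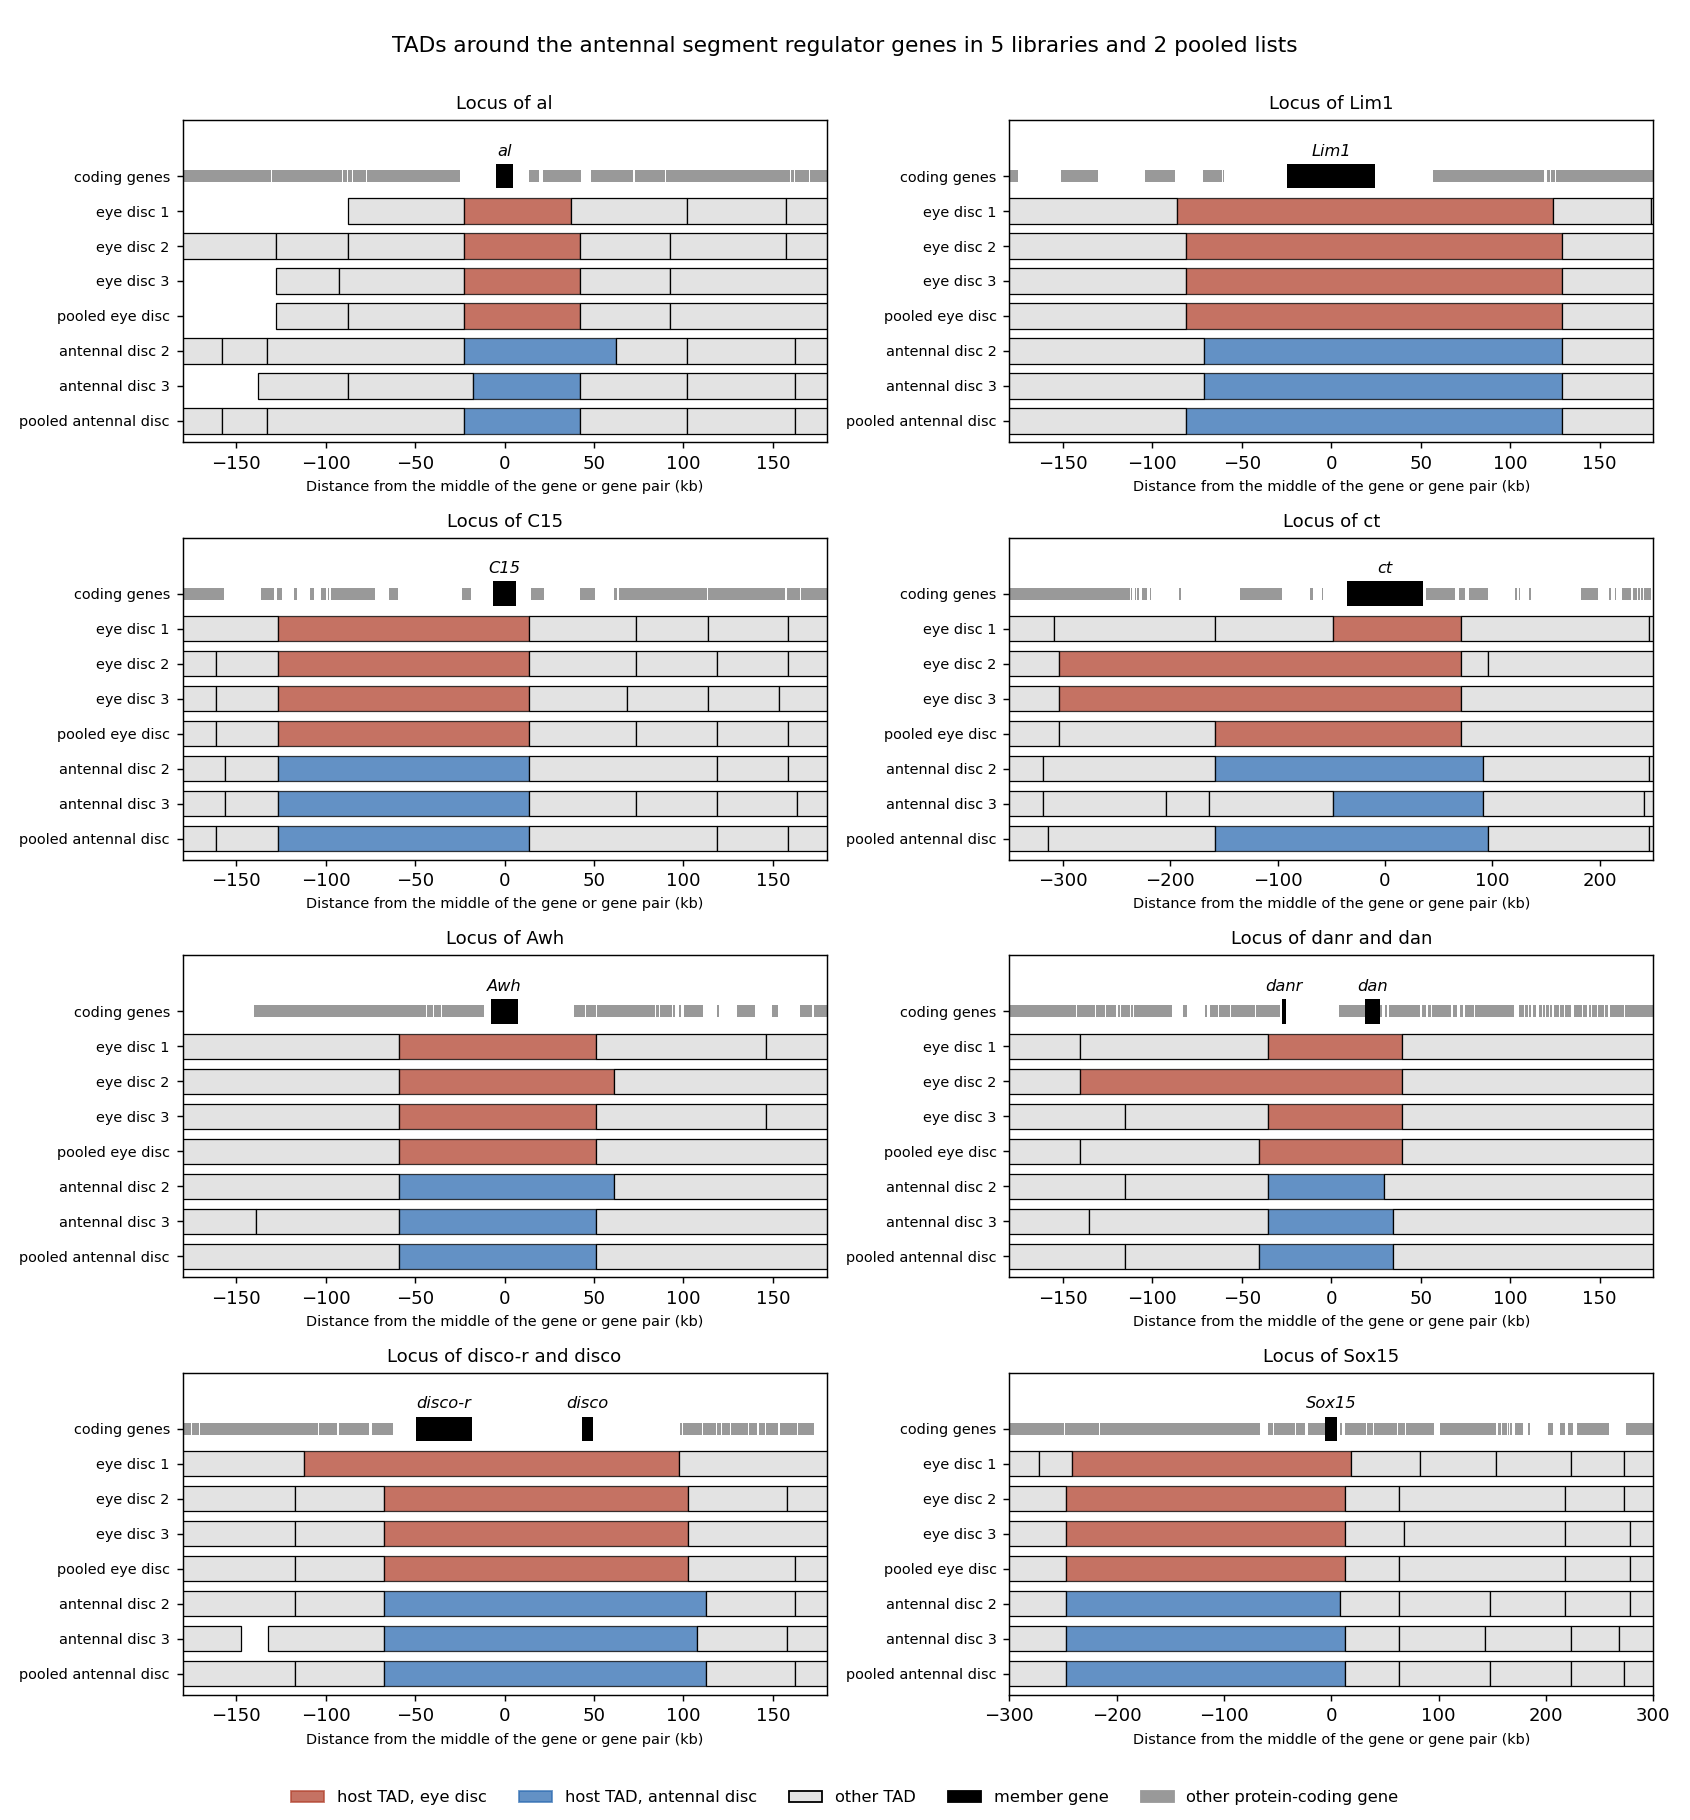
TADs (boxes) around the 8 loci in 5 libraries and 2 pooled lists, against the distance in kb from the middle of the gene or gene pair; the TAD that holds the member is red in the eye disc and blue in the antennal disc, and protein-coding genes are drawn above. The *C15* TAD is the same in all 7 lists, whereas the higher edge of the *ct* TAD lies 20 kb farther out in both antennal libraries than in the 3 eye libraries.

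Among the genes of the arista, *C15* had a domain that did not vary. *C15* (3R, 21499986 to 21512814, dm6) lay in a TAD from 21380001 to 21520000 in each of the 5 libraries and in both pooled lists, a width of 140 kb. A host TAD with the same start and end in all 7 lists was found for 0.778% of the 17227 genes with a host TAD in every library, and one with the same start and end in the 5 libraries for 0.911%. That property was picked out after its value was seen. *C15* sat near the higher edge, 7.19 kb from it, and 13.6 kb from the border as the mean of its ends in every library. Its TAD also held *lbe* and *lbl*, the ladybird homeobox genes, and *bap*, a further homeobox gene, in 5 of 5 libraries. The lower border lay within 1 bin of *tin*, a homeobox gene of heart development, and of *mod(mdg4)*, which encodes an insulator protein. Both borders were therefore drawn at the same bin in both discs, with *C15* on the inside and its higher neighbour *sp3* on the outside in all 5 libraries.

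*al* (2L, 378112 to 387439) lay in the narrowest domain of the 8 in both pooled lists, 65 kb wide. Its TAD was 60, 65 and 65 kb wide in eye disc libraries 1, 2 and 3 and 85 and 60 kb in antennal disc libraries 2 and 3. Eye and antennal widths overlapped, and antennal disc library 2 alone was wider. There the TAD ended at 445000, beside *ex*, a gene of the Hippo growth pathway, whereas it ended at 420000 or 425000 in the other 4 libraries and at 425000 in both pooled lists. The lower edge was at 360001 in 4 libraries and at 365001 in antennal disc library 3. *al* lay 22.8 kb from a border in 4 libraries and 17.8 kb in antennal disc library 3. *CG4213*, *Polr1B*, a subunit of RNA polymerase I, and *AP-2alpha*, a clathrin adaptor subunit, were the nearest of 5 genes inside its TAD in all 5 libraries, while its lower neighbour *Ent1* was outside it in all 5.

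*Lim1* (X, 8756539 to 8805804) lay deepest inside its domain of all members in the mean over discs, with distance taken as the mean of both gene ends. By the nearer end, *Lim1* lay at 46.5 kb in both antennal libraries, and *disco* at 63.25 and 58.25 kb. In the eye libraries the order was the reverse, with 61.5, 56.5 and 56.5 kb for *Lim1* and 48.25, 53.25 and 53.25 kb for *disco*. By the mean of both ends, the distance of *Lim1* to the nearest border was 80.4 kb in each of the 3 eye libraries and 71.2 kb in both antennal libraries. The discs thus did not overlap (difference 9.20 kb, exact permutation p = 0.2). The host TAD was 210 kb wide in all eye libraries and 200 kb in both antennal libraries. The lower edge made this difference. It lay at 8695001 in eye disc library 1, at 8700001 in eye disc libraries 2 and 3, and at 8710001 in both antennal libraries. The higher edge lay at 8905000 in eye disc library 1 and at 8910000 in the other libraries. Both edges of eye disc library 1 were thus 1 bin lower than in the other eye libraries, and these shifts cancelled in its distance and width. The eye border lay beside *Ppt1*, *Ogg1*, a DNA repair gene, and *CG11294*, and the antennal border beside *CG2004*, *CG1785* and *Hexo2*, which encodes a hexosaminidase. In the pooled antennal list, however, the lower edge lay at 8700001, as in the pooled eye list, so the authors' pooled lists do not show the difference. The space around *Lim1* was open, with 35.0 kb to *CG1789* on the lower side and 32.5 kb to *CG12075* on the higher side, and both shared its TAD in 5 of 5 libraries.

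For *ct* (X, 7608428 to 7678859) the 2 sides of the domain behaved differently. Toward higher coordinates the TAD ended at 7715000 in all 3 eye libraries and at 7735000 in both antennal libraries (exact permutation p = 0.2). The edge thus lay 20 kb farther from *ct* in the antennal disc, and the discs did not overlap. The pooled lists differed in the same direction, with 7715000 for the eye disc and 7740000 for the antennal disc. Of all genes, 5.05% had a higher host TAD edge with at least 20 kb between the discs in either direction. Between the eye and antennal positions lie *Hira*, a histone chaperone gene, *NELF-B*, a subunit of the negative elongation factor, *CG12155* and *Pdp*. These 4 genes lay with *ct* in 1 TAD in both antennal libraries and outside its TAD in all 3 eye libraries. The border at 7715000, beside *CG15478*, was present in 3 of 3 eye libraries and 0 of 2 antennal libraries. A border at 7735000 to 7740000 was present in both antennal libraries and also in eye disc library 2, which had a narrow further TAD there.

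On the lower side of *ct* the libraries differed without regard to the disc. The TAD began at 7340001 in eye disc libraries 2 and 3, at 7485001 in antennal disc library 2, and at 7595001 in eye disc library 1 and antennal disc library 3. The last 2 are the libraries that lack calls elsewhere, and their border at 7595001 lay in a stretch with no protein-coding gene within 1 bin. In consequence the TAD was 120, 375 and 375 kb wide in the eye libraries and 250 and 140 kb in the antennal ones, values that overlap. Both pooled lists placed the edge at 7485001, a border that eye disc library 1 had but used for the adjoining TAD. The distance of *ct* to a border took in both sides, and was 24.8, 71.4 and 71.4 kb in the eye libraries and 89.8 and 34.8 kb in the antennal ones. In eye disc libraries 2 and 3 both gene ends had the higher edge as their nearest border. The 24.8 and 34.8 kb of eye disc library 1 and antennal disc library 3 share the lower edge and differ through the higher one. *CHES-1-like*, a forkhead gene 3.48 kb away, was the single gene that lay wholly in the *ct* TAD in all 5 libraries, and the lower neighbour *CG12689* did so in 3.

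*dan* and *danr* lay at opposite ends of 1 short domain. *danr* (3R, 25138072 to 25139903) and *dan* (3R, 25184383 to 25192806) are 44.5 kb apart and shared a TAD in 5 of 5 libraries and in both pooled lists. Their midpoints are 49.6 kb apart. Of all protein-coding gene pairs with midpoints within 10% of that distance, 29.8% shared a TAD in all 5 libraries. The TAD ran from 25130001 in 4 libraries, and there *danr* stood 8.07 kb from the lower edge. In eye disc library 2 that border was missing, the TAD began at 25025001, and 37 protein-coding genes, the pair included, lay inside instead of 4 or 5. *danr* was accordingly 8.99 kb from a border in 4 libraries and 66.0 kb in eye disc library 2. In both pooled lists the TAD began at 25125001 and held 8 protein-coding genes, the pair included. There *danr* lay 14.0 kb from a border. *Bili*, which encodes a regulator of Wnt signalling, and *lobo*, within whose annotated span *dan* lies wholly, were inside with the pair in all 5 libraries.

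The higher edge, next to *dan*, separated the discs by 1 bin. It lay at 25205000 in all 3 eye libraries, at 25195000 in antennal disc library 2 and at 25200000 in antennal disc library 3. *dan* was 16.4 kb from a border in each eye library and 6.41 and 11.4 kb in the antennal libraries, without overlap (difference 7.50 kb, exact permutation p = 0.2). The pooled lists, at 25205000 and 25200000, differed by 1 bin in the same direction. The edge fell among *CG13653*, *CG13654* and *Cad96Ca*, a cadherin-like receptor kinase gene. The TAD was 75, 180 and 75 kb wide in the eye libraries and 65 and 70 kb in the antennal ones, also without overlap (exact permutation p = 0.2), where the 180 kb came from the missing lower border and the rest from the higher edge.

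*disco* and *disco-r* lay together in a wide domain with few genes. *disco-r* (X, 16118067 to 16148977) and *disco* (X, 16210598 to 16216750) are separated by 61.6 kb without another protein-coding gene and shared a TAD in 5 of 5 libraries and in both pooled lists. The midpoints of the 2 genes are 80.2 kb apart, and among all protein-coding gene pairs with midpoints within 10% of that distance, 13.1% shared a TAD in all 5 libraries. The TAD was 210, 170 and 170 kb wide in the eye libraries and 180 and 175 kb in the antennal ones, and held 9, 3 and 3 protein-coding genes wholly in the eye libraries and 6 and 4 in the antennal ones, the pair included. Its lower edge was at 16100001 in 4 libraries and at 16055001 in eye disc library 1. *disco-r* was therefore 33.5 kb from a border in 4 libraries and 78.5 kb in eye disc library 1, the one library in which its lower neighbour *CG42354* was in the TAD.

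On the higher side of *disco* the discs did not overlap. The edge lay at 16265000, 16270000 and 16270000 in the eye libraries and at 16280000 and 16275000 in the antennal ones (exact permutation p = 0.2). *disco* was 51.3, 56.3 and 56.3 kb from a border in the eye libraries and 66.3 and 61.3 kb in the antennal ones (difference -9.17 kb, exact permutation p = 0.2). The antennal positions lay 5 kb or more beyond the eye positions, and the pooled lists, at 16270000 and 16280000, differed by 2 bins in the same direction. *Mfe2*, a gene of peroxisomal fatty acid oxidation, lay inside the antennal TADs and outside the eye TADs. Over all libraries these borders were 1 cluster, each within 1 bin of the next.

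*Awh* (3L, 3846206 to 3861692) lay near the middle of a domain of 110 or 120 kb that did not follow the disc. The lower edge was at 3795001 in all 7 lists. The higher edge was at 3905000 in eye disc libraries 1 and 3, antennal disc library 3 and both pooled lists, and at 3915000 in eye disc library 2 and antennal disc library 2. Distances were 47.3, 52.3 and 47.3 kb in the eye libraries and 52.3 and 47.3 kb in the antennal ones, so the discs took the same 2 values. The domain was shared in 5 of 5 libraries with 14 protein-coding genes, the nearest being *enc*, a gene of oogenesis 3.88 kb away, *Rdh* and *Scsalpha1*. One of the 14, picked out after its values were seen, was *Gr63a*, which encodes a subunit of the antennal carbon dioxide receptor.

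*Sox15* (2R, 14201390 to 14212413) lay near the end of a wide domain. Its TAD was 260 kb wide in the 3 eye libraries and 255 and 260 kb in the antennal ones. The lower edge was at 13965001 in eye disc library 1 and at 13960001 in the other 4, and the higher edge was at 14225000, 14220000 and 14220000 in the eye libraries and 14215000 and 14220000 in the antennal ones. *Sox15* was 18.1, 13.1 and 13.1 kb from a border in the eye libraries and 8.10 and 13.1 kb in the antennal ones, values that overlap. In contrast to the open spaces around *Lim1* and *disco*, its lower neighbour *VGAT*, the vesicular GABA transporter gene, lay 0.14 kb away and 27 protein-coding genes shared its TAD in all 5 libraries. The higher neighbour *RpS23*, a ribosomal protein gene between *Sox15* and the border, was in the TAD in 4 of 5.

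Of the 16 distinct edges of the 8 domains, 3 were at 1 bin position in all 5 libraries, both at *C15* and the lower one at *Awh*, and 6, these included, stayed within 1 bin. Another 3 spanned 10 kb, and the other 7 spanned 15 to 255 kb, with the lower edges of *ct*, of the *danr* and *dan* TAD and of the *disco-r* and *disco* TAD at the upper end. At 4 of the 16 edges, or 25%, eye and antennal positions did not overlap. These were the lower edge at *Lim1* and the higher edges at *ct*, *dan* and *disco*. The values over all genes count an edge once per gene, not once per TAD, so the units are unlike. Over all genes with a host TAD in every library, the discs did not overlap at 12.8% of lower edges (5.96% with the eye and 6.87% with the antennal position at the higher coordinate) and 13.0% of higher edges (7.78% and 5.23%). At *Lim1*, *ct* and *disco* the antennal position had the higher coordinate, and at *dan* the eye position. The positions at *ct* differed by 0 kb within either disc and by 20 kb between the discs. At *Lim1* the gap was 10 kb, against 5 kb between the eye libraries. At *dan* and *disco* the gap of 5 kb equalled the 5 kb between the antennal libraries. These spreads come from 3 and 2 libraries, at edges chosen after their values were seen, and cannot give the error of an edge.

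**Figure D2:**
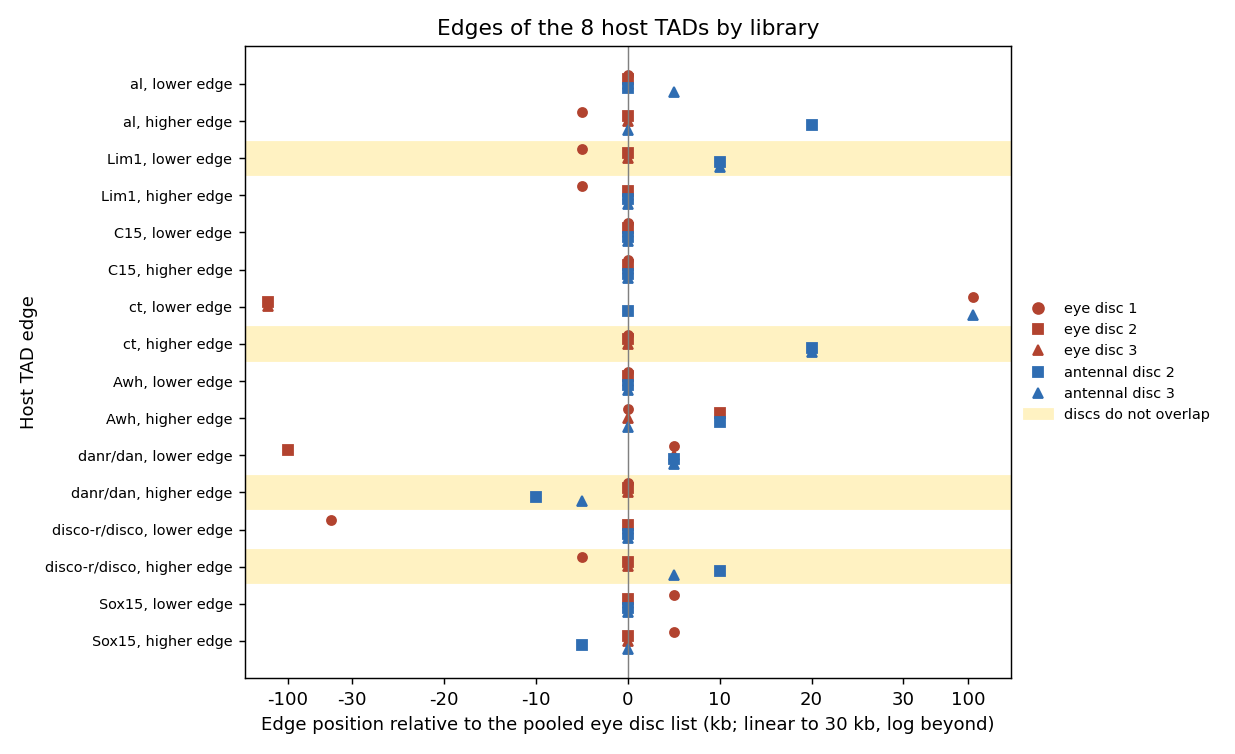
Position of each host TAD edge in each library, in kb from its place in the pooled eye disc list (linear to 30 kb, logarithmic beyond); shaded edges are the 4 at which the 3 eye and 2 antennal libraries do not overlap. The lower edge at *ct* spans 255 kb over libraries of both discs, and its higher edge separates the discs by 20 kb.

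The pooled lists come from all replicates of each disc, so they are not independent of the libraries. They gave a similar picture, with exceptions. They placed the lower edge at *Lim1* at the same bin in both discs. The lower edge of the *danr* and *dan* TAD was at 25125001 in both, a position that none of the libraries had. The higher edge at *ct* was at 7740000 in the pooled antennal list, against 7735000 in both antennal libraries. For 14 of the 16 edges of the pooled eye list the pooled antennal list had a border within 1 bin, and 13 were at the same bin. The 2 without a partner were the higher edges at *ct*, 25 kb apart, and at *disco*, 10 kb apart. Counted per gene, 85% of the members' edges were shared, against 80.1% over all genes, and 85% against 74.8% when the pooled antennal edges were looked up in the pooled eye list. Individual libraries found 10 to 15 of the 16 pooled eye edges within 1 bin. Antennal disc library 2 found the fewest, and eye disc libraries 1 and 3 the most. Of the pooled antennal edges, libraries found 12 to 15, and there eye disc library 2 found the fewest and antennal disc library 3 the most.

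The members spanned a wide range of distances to borders. In the mean over discs *dan* (12.7 kb), *Sox15* (12.7 kb) and *C15* (13.6 kb) lay nearest, and their ranges over libraries overlap. *danr* (18.5 kb) and *al* (21.5 kb) followed, then *disco-r* (41.0 kb) and *Awh* (49.3 kb), and *ct* (59.1 kb), *disco* (59.2 kb) and *Lim1* (75.8 kb) lay farthest. The place of *danr* rested on eye disc library 2. It lay at 8.99 kb in every other library and was the nearest of all members in antennal disc library 3 and in the eye disc's libraries 1 and 3. Neighbours in this order mostly do not differ beyond their spread over libraries, since *ct* ranged from 24.8 to 89.8 kb and *danr* from 8.99 to 66.0 kb. For the median of the 10 members, eye libraries gave 31.6 ± 10.0 kb (SD, n = 3) and antennal libraries 26.9 ± 1.77 kb (SD, n = 2), beside 23.4 ± 2.40 and 21.9 ± 1.19 kb over all protein-coding genes. The eye value rested on eye disc library 2, at 42.9 kb. Without it the eye mean minus the antennal mean was -0.934 kb, instead of 4.71 kb with all libraries.

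Eye and antennal distances did not overlap for 3 of the 10 members, or 30%, against 13.0% of all 17570 genes measured in the 5 libraries. *Lim1* and *dan* were farther from a border in the eye disc and *disco* in the antennal disc, directions that 7.73% and 5.29% of all genes took. *Lim1* was the member with more than 1 bin between the discs, a rule that 5.67% of all genes met. Without antennal disc library 3 the count was 5 of 10, against 26.8% of all genes, and without antennal disc library 2 it was 4, against 33.1%. Leaving out eye disc library 1, 2 or 3 gave 3 each time, against 24.1%, 21.8% and 18% of all genes. The members share TADs in pairs and were not treated as independent.

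**Figure D3:**
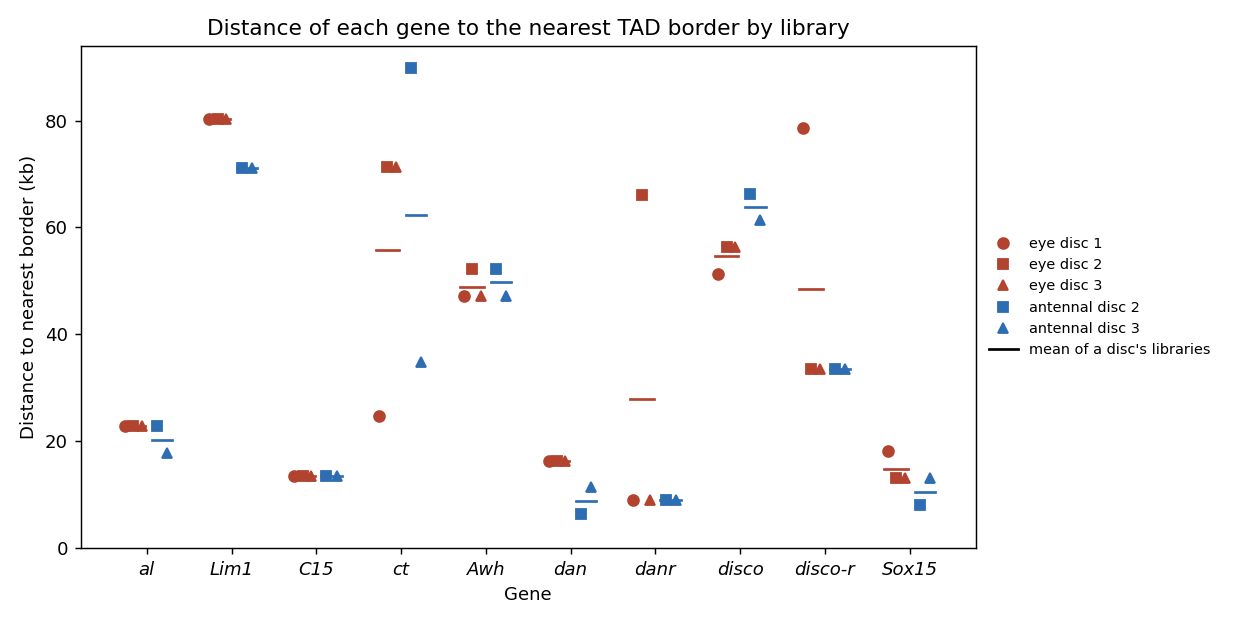
Distance in kb of each gene to the nearest TAD border, as the mean over both gene ends, with 1 point per library and a bar at the mean of each disc's libraries. For *Lim1*, *dan* and *disco* the eye and antennal points do not overlap, and for *ct*, *danr* and *disco-r* libraries of 1 disc lie far apart.

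Host TADs were 152 ± 17.5 kb wide in the median of the members (SD, n = 5 libraries), beside 124 ± 11.4 kb for the TADs that hold the median protein-coding gene. Eye and antennal widths did not overlap for *Lim1*, *dan* and *danr*, 3 of 10 members in 2 TADs, against 17.6% of all genes. All 3 were wider in the eye disc, as were 11.0% of all genes, and 6.66% were wider in the antennal disc. The count was 6 without eye disc library 1, against 34.2% of all genes, and 5 without antennal disc library 3, against 36.0%. It was 3 without eye disc library 2, eye disc library 3 or antennal disc library 2, against 29.1%, 24.9% and 44.1%. With more than 1 bin required between the discs, 1 of 10 members was left for widths, against 11.4% of all genes.

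**Figure D4:**
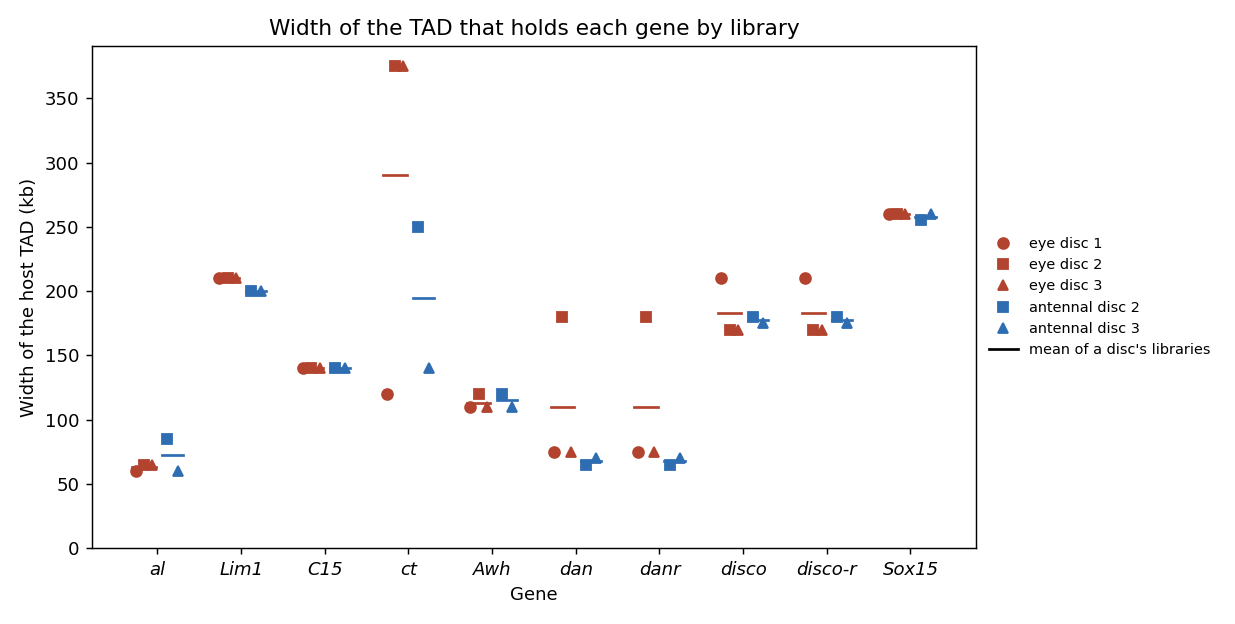
Width in kb of the TAD that holds each gene, with 1 point per library and a bar at the mean of each disc's libraries. Widths of the *C15* TAD are 140 kb in every library, and those of the *ct* TAD run from 120 to 375 kb within the eye disc.

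Most members lay in domains with few genes. The median member's TAD held 7.04 ± 1.21 protein-coding genes per 100 kb (SD, n = 5 libraries), and that of the median protein-coding gene 14.0 ± 0.176. In eye disc libraries 1 and 3 all 10 members were below that median, in the antennal libraries 9, and in eye disc library 2 the count was 7. The members' median and these counts are per gene, so a TAD shared by a pair enters once for each gene of the pair. *disco* and *disco-r* had the emptiest domain at 2.69 ± 1.10 genes per 100 kb, followed by *ct* at 4.64 ± 1.73 and *Lim1* at 5.05 ± 0.199. *C15* had 6.43 in every library and *Sox15* 11.7 ± 0.333. *al* (12.9 ± 1.99) and *Awh* (14.2 ± 0.747) were close to the median. The *dan* and *danr* domain held 6.15 to 7.14 genes per 100 kb in 4 libraries and 20.6 in eye disc library 2, where it reached into the gene-dense stretch on its lower side. The pooled eye and antennal lists gave 10.0 and 10.7 for this domain. Long genes take up space that other genes cannot, and the part of gene length in these densities was not tested.

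**Figure D5:**
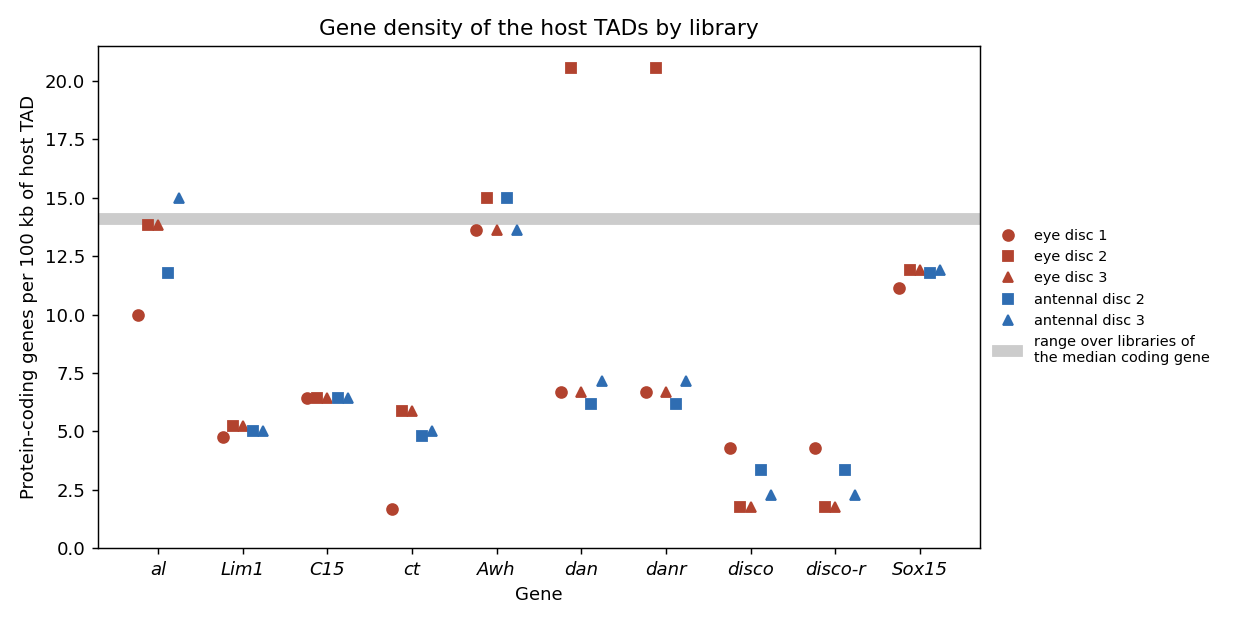
Protein-coding genes wholly inside the host TAD per 100 kb of its width, with 1 point per library; the grey band is the range over libraries of the value for the median protein-coding gene. *disco*, *disco-r*, *ct*, *Lim1* and *C15* lie below 7 in every library.

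A further 26 genes of antennal patterning were looked up in the same way, among them *Dll*, *hth*, *ss*, *dac*, the *sal* and *bab* pairs, and genes of the Notch, Wnt, Dpp and EGF receptor pathways. For 2 of them, or 7.69%, both antennal distances were above all eye distances, beside the 5.29% of all genes given above, and for 0 of them the eye distances were above all antennal ones. One was *vn*, which encodes a ligand of the EGF receptor, at 18.8, 16.3 and 18.8 kb in the eye libraries and 33.8 and 40.5 kb in the antennal ones (exact permutation p = 0.2). The pooled lists placed *vn* at 16.3 kb in both discs. The other was *bab1*, a BTB domain gene of distal leg and antenna, at 32.4 kb in each eye library and 33.7 kb in both antennal ones, less than 1 bin apart. Their median distance in the mean over discs was 30.6 kb, beside 31.3 kb for the 10 members and 25.0 kb over all protein-coding genes.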

How the data were processed

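Alignment of the Hi-C reads used Bowtie2 2.3.4.2 and the build dm6, per the submitters' processing notes. The calling of TADs, with its bins, is not given in the sources used here. Lists as deposited hold chromosome, TAD start and TAD end, 1 list for each of the 5 libraries used and 1 per disc from all replicates, without scores or depth. Starts and ends in the lists are multiples of 5 kb, and starts are printed here counted from 1. Borders were TAD starts and ends, merged where an end and the next start were at most 1 bin apart. The host TAD held the gene's midpoint, and a gene's distance was the mean over its ends. Gene positions are RefSeq's on Release 6, which is dm6, and carry no strand or sequence.

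Members and lists were chosen with earlier results of these data known. Genes named are the members, their neighbours on each side, the 3 nearest genes in the host TAD in all 5 libraries, and genes at borders of 1 disc within 150 kb. Other genes (*bap*, *tin*, *mod(mdg4)*, *ex*, *InR*, *ush*, *Hira*, *NELF-B*, *CG12155*, *Pdp*, *Mfe2*, *CG13654*, *Cad96Ca*, *Gr63a*), and the comparison of single edges, were chosen after their values were seen. Libraries of a disc are separate pools of 125 discs. Discs were compared by two-sided exact permutation over 10 assignments, and counts were set beside the percentage over all genes. Code was tested on simulated data. Tables were handled with pandas 2.3.3 and numpy 2.4.6 under Python 3.11.15, tests run with scipy 1.17.1 and plots drawn with matplotlib 3.10.9.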

Additional observations from a re-analysis of the deposited data

How the results depend on the processing

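Over the 5 sets that leave out 1 library, the count of members whose distances do not overlap between the discs ran from 3 to 5 of 10, against 18% to 33.1% of all genes, and that for host TAD widths from 3 to 6, against 24.9% to 44.1%. The counts were 5 and 8 when 2 eye libraries, 2 and 3, were set against antennal disc library 2 alone, against 42.3% and 57.1% of all genes, and 1 and 1 where the discs had to lie over 1 bin apart, against 5.67% and 11.4%. With the replicate number as a block, the counts were 3 and 6, against 29.5% and 43.5% of all genes. The labels do not say that a number marks a shared batch, and differences between replicates 2 and 3 correlated across genes between the discs with r = 0.0698, with genes not independent. Gene position, border definition and narrow TADs left the count of distances at 3 in each setting run, against 12.7% to 13% of all genes. Shared edges of the pooled lists came to 75% at a tolerance of 0 bins, 95% at 2 bins and 100% at 5 bins, against 57.2%, 85.1% and 91.5% of all genes' edges, and between single eye and antennal libraries to 64.6% in the mean (47.5% to 85%). Each gene pair also shared its TAD in 5 of 5 libraries when both whole gene bodies had to lie in it. The distance to the transcription start was not run, since the gene table has no strand. Few libraries and unknown depth limit every comparison.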

Other observations

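Borders outside the host TADs also varied near the members. Within 150 kb of the 8 loci there were 39 border sites, the edges of the host TADs included. Of these, 10 were present in all 5 libraries and 5 in 1 library. Another 2 were present in all eye and no antennal libraries, and 1 in both antennal and no eye libraries. The other 21 had a different mix of libraries. The same shares over all borders were not counted. The sites of 1 disc were those described at *ct* and on the lower side of *Lim1*, and all of them were host TAD edges. The eye site at *Lim1* was also a border of the pooled antennal list. Next to the *C15* TAD, a border at 21575000 to 21580000 within 1 bin of *InR*, the insulin receptor gene, was present in 3 of 3 eye libraries and 1 of 2 antennal libraries, in the pooled eye list and not in the pooled antennal one. Near *al*, a border at 475000 beside *ush*, a zinc finger gene, was present in eye disc libraries 2 and 3 and in the pooled eye list, while both antennal libraries, eye disc library 1 and the pooled antennal list had one at 485000.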
